A study of Mus musculus with 4 samples.

Results

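The genes described here are the transcripts that carry an interleukin-4 (IL-4) signal from the macrophage surface to the nucleus. They were 10 genes chosen by name, Il4ra, Il13ra1, Il2rg, Jak1, Jak2, Jak3, Tyk2, Stat6, Socs1 and Cish, of 16739 genes with a value in any of the 4 libraries, and all 10 were detected in every library. RNA sequencing was done on tumor-associated macrophages (TAMs) of C57BL/6 mice, sorted as CD45+ CD11b+ F4/80+ cells from subcutaneous tumors of B16-F10, a mouse melanoma line. There were 2 libraries from WT mice and 2 from mice lacking Trim24 in myeloid cells (Trim24 flox/flox LysM-Cre), all inoculated at an age of 6 to 8 weeks and killed 16 days later. LysM-Cre is active in the myeloid lineage and not in macrophages alone, and the WT controls were described as littermates. The question put to these genes was whether the transcripts of the IL-4 receptor pathway differed between WT TAMs and TAMs labelled Trim24-deficient.

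IL-4 binds the receptor chain IL-4Rα, encoded by Il4ra, which then pairs either with the common gamma chain (Il2rg) to form the type I receptor or with IL-13Rα1 (Il13ra1) to form the type II receptor, which also takes IL-13. The chains have no enzyme activity of their own and work through bound Janus kinases, of which Jak1 sits on IL-4Rα, Jak3 on the common gamma chain, and Tyk2 or Jak2 on IL-13Rα1. The kinases phosphorylate Stat6, a latent transcription factor that dimerizes, enters the nucleus and turns on genes of alternative (M2) macrophage activation such as Arg1. Socs1 and Cish belong to the suppressor of cytokine signalling family, are induced by STAT proteins, and dampen JAK-STAT signalling.

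The libraries held 4476122 to 5172407 expected counts, so that 3 counts, the limit set by counting error for a transcript listed at 0, were worth 0.606 to 0.639 CPM. CPM here is the expected count scaled to a common library total by the trimmed-mean (TMM) method of edgeR and serves to compare libraries, and FPKM, which is also per kilobase of transcript, serves to compare genes. Trim24, the targeted gene, had values of 5.86 and 2.08 CPM in WT (replicate 1, then 2, here and below) against 3.41 and 0.411 CPM in the other group. The groups overlapped (log2 fold change -1.06, adjusted p = 0.635 in edgeR's quasi-likelihood test), and so the second group is called the KO-labelled libraries after the sample titles. Sex-linked transcripts split the libraries along the same line, although the study describes sex-matched mice. The X-linked Xist RNA was at 10.9 and 6.46 CPM in WT and at 437 and 256 CPM in the KO-labelled libraries, and the Y-linked Ddx3y stood at 73.7 and 102 against 0.426 and 0.411 CPM. Genotype and sex of the mice therefore cannot be told apart in any difference given below, and Il13ra1 and Il2rg are themselves on the X chromosome.

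The sorted cells carried the markers of their label, and the 11 macrophage genes examined, among them Adgre1, which encodes F4/80, summed to 14933 and 12325 CPM in WT and to 17772 and 16089 CPM in the KO-labelled libraries. All 11 had log2 fold changes above 0, none called. In CPM, 6 had both KO-labelled libraries above both WT libraries, against 21.4% of all genes. In FPKM only 1 of the 11 did, against 12.3% of all genes. Their part in the differences of the 10 genes was not tested. Transcripts of other cells were present at far lower sums. The 13 T cell markers summed to 98.0 to 257 CPM and the 9 NK cell markers to 70.4 to 452 CPM. In bulk RNA, fewer cells of a type and less RNA per cell cannot be told apart.

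The promoters of the inhibitors and of Il2rg are shown here because Socs1 and Il2rg had the largest differences of the 10 genes, while Cish, the other feedback inhibitor, had a small one. Each line gives the 250 bases before the annotated start, read 5′ to 3′ on the gene's strand from the RefSeq sequence of GRCm38.p6, in which capitals mark matches to GAAANNGAAA, the core of an interferon-stimulated response element. The Socs1 window is chr16:10785537-10785786 on the minus strand, the Il2rg window is chrX:101268256-101268505 on the minus strand, and the Cish window is chr9:107296409-107296658 on the plus strand.
Socs1: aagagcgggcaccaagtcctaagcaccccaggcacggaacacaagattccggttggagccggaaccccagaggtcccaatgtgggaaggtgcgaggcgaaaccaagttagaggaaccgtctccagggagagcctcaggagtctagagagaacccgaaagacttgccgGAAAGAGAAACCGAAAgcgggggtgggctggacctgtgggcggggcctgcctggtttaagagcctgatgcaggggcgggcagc
Il2rg: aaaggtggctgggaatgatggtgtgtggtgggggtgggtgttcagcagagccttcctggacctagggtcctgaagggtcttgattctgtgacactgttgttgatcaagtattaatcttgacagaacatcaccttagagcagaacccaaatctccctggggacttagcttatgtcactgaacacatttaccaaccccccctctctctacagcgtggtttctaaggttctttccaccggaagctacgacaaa
Cish: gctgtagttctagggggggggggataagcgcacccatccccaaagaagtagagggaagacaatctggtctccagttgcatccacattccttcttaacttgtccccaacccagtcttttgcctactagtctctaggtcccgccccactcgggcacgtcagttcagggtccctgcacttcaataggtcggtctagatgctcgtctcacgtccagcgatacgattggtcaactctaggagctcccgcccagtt

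The Socs1 window held 2 overlapping matches, GAAAGAGAAA from position -83 to -74 and GAAACCGAAA from -77 to -68, counted back from the start, with -1 the base before it. This motif was chosen after the Socs1 sequence had been read, and it is present in 3.04% of the 27025 mouse promoters of that length on either strand. No window of the other 9 genes held it. The palindrome TTCNNNGAA, bound by most STAT proteins, and TTCNNNNGAA, the spacing that STAT6 prefers, were searched on both strands as well. They were found in 7.18% and 5.86% of promoters, and in none of the 10 windows. The absence says only that these letters are not within 250 bases of these starts.

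The 10 transcripts covered a wide range of levels. On the FPKM scale, averaged over the 4 libraries with the SD between them, Il2rg was highest at 229.8 ± 94.6 FPKM, followed by Il4ra at 119.7 ± 20.1 FPKM and Stat6 at 70.4 ± 4.83 FPKM. Jak1 followed at 44.2 ± 1.41 FPKM and Socs1 at 35.1 ± 24.0 FPKM. Below them were Il13ra1 at 17.0 ± 3.28 FPKM, Jak3 at 14.6 ± 3.34 FPKM and Tyk2 at 12.8 ± 2.67 FPKM. Jak2 at 4.79 ± 0.956 FPKM and Cish at 2.66 ± 0.329 FPKM closed the order (n = 4 libraries for each). Il4ra, Stat6 and Jak1 were apart from one another in every library. So were Tyk2, Jak2 and Cish, whereas neighbours from Jak1 through Socs1, Il13ra1 and Jak3 to Tyk2 overlapped in range and kept their order in 3 of 4 libraries. Il2rg exceeded Il4ra in 4 of 4 libraries although their ranges overlapped. The chain shared with other cytokine receptors was thus the most abundant transcript of the 10, and the chain particular to the type II receptor was the least abundant of the receptor chains.

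**Figure D1:**
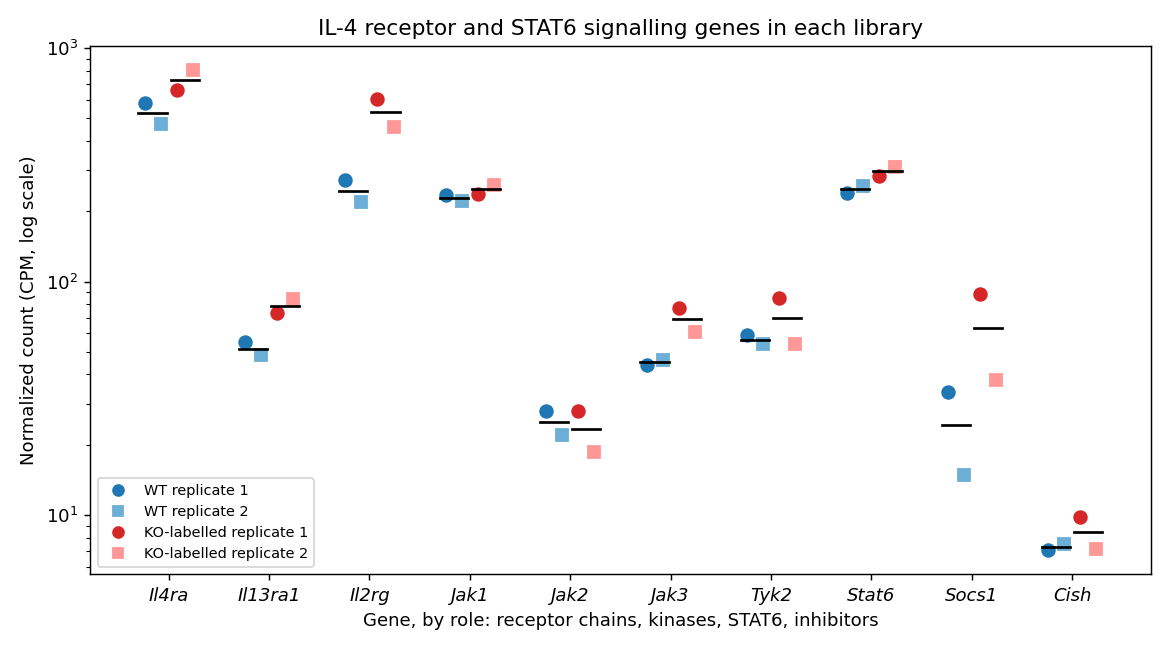
Normalized count (CPM, log axis) of the 10 genes in each library, grouped by role, with circles for replicate 1, squares for replicate 2, and a bar at each group's mean of 2 libraries. The 2 KO-labelled libraries lie above both WT libraries for 7 genes, with the widest gaps for Il2rg and Socs1, and the groups overlap for Jak2, Tyk2 and Cish.

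Between the groups, no member of the pathway passed the test. With edgeR's quasi-likelihood test on 11302 genes and a call set at a fold change above 1.5 and an adjusted p below 0.05, 0 of the 10 genes were called, against 0.372% of all genes tested. At an unadjusted p below 0.05 there were 4 genes, Il2rg, Socs1, Il13ra1 and Jak3, all higher in the KO-labelled libraries, where 6.58% of all genes met that mark in that direction. DESeq2 called 1 gene, Il2rg, where it called 1.46% of all genes, and limma on log2(FPKM + 1) called 0 of the 10, where it called 0.207% of all genes. In CPM, 7 of the 10 genes had both KO-labelled libraries above both WT libraries, which held for 21.4% of all genes, and in FPKM 5 of the 10 did, against 12.3%. The fitted log2 fold change (KO-labelled libraries over WT) was above 0 for 9 of the 10 genes, with a median of 0.39, while its median over all genes tested was -0.006. With 2 libraries per group an exact two-sided permutation test cannot give a p below 0.333, so the p-values rest on a spread that edgeR shares between genes. The sources used here do not say whether the 2 libraries of a group came from separate mice, and the p-values then measure only the spread between these libraries, which may be technical.

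**Figure D2:**
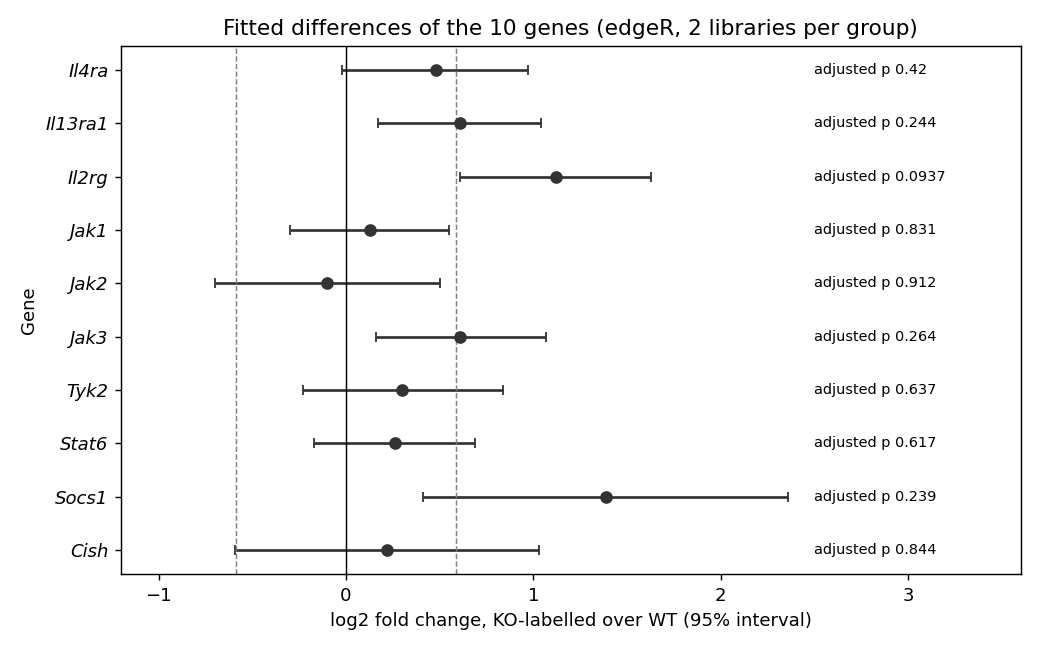
Fitted log2 fold change of each gene, KO-labelled libraries over WT, with its 95% interval from edgeR (2 libraries per group) and the adjusted p beside it; the dashed lines mark a fold of 1.5 in either direction. The intervals of Il2rg, Socs1, Il13ra1 and Jak3 lie above 0, those of the other 6 genes span it, and no adjusted p is below 0.0937.

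Among the receptor chains, Il2rg differed most. Il2rg (Entrez gene 16186, 8 exons, GRCm38 chrX:101264385-101268255) encodes the gamma chain shared by the receptors for IL-2, IL-4, IL-7, IL-9, IL-15 and IL-21. It was at 271 and 219 CPM in WT and at 607 and 460.5 CPM in the KO-labelled libraries. The lower of the latter was well above the higher WT library, and the groups did not overlap on either scale. The fold was 2.18 (95% interval 1.53 to 3.11), or 1.12 on the log2 scale (SE 0.23), with an adjusted p of 0.0937 from edgeR. The difference missed the threshold with all 4 libraries and ranked 86 of 11302 genes by p. Il2rg was called without KO-labelled replicate 1 (log2 fold change 0.92, adjusted p = 0.0133 in edgeR) and without replicate 2 (1.31, adjusted p = 0.000264), where 3.46% and 5.54% of all genes were called. It was not called without WT replicate 1 (adjusted p = 0.15) or without WT replicate 2 (adjusted p = 0.798).

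Il4ra (Entrez gene 16190, 11 exons, GRCm38 chr7:125552271-125579474), the chain that binds IL-4 itself, was at 579 and 471 CPM in WT and at 658 and 805 CPM in the KO-labelled libraries. The groups did not overlap, but the gap between WT replicate 1 and the nearer library was smaller than the distance between the 2 WT libraries. The fold was 1.39 (95% interval 0.987 to 1.96, adjusted p = 0.42 in edgeR). Il13ra1 (Entrez gene 16164, 11 exons, GRCm38 chrX:36112108-36171262), which completes the type II receptor, was at 54.9 and 48.3 CPM in WT and at 73.3 and 83.8 CPM in the KO-labelled libraries. Both of the latter were above both WT libraries, and the fold was 1.52 (95% interval 1.13 to 2.05, adjusted p = 0.244 in edgeR). All 3 chains of the IL-4 receptors were therefore higher in both KO-labelled libraries, none past the threshold of edgeR with all 4 libraries.

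The balance between the chains was read from FPKM within each library, which needs no scaling between libraries. Il4ra stood at 7.67 and 7.09 times Il13ra1 in WT and at 6.53 and 6.98 times in the KO-labelled libraries. The ratio of Il2rg to Il13ra1 was 11.2 and 10.3 in WT and 18.8 and 12.5 in the KO-labelled libraries, and that of Il4ra to Il2rg was 0.682 and 0.689 against 0.347 and 0.558. Each of the 3 ratios kept the groups apart, the first of them narrowly, and each reached the smallest p that the exact two-sided permutation test allows for 2 against 2 libraries, 0.333. The ratio of the type II pair thus differed little between the groups, whereas the gamma chain took a larger place among the receptor transcripts in both KO-labelled libraries, most of all in replicate 1.

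Because Il13ra1 and Il2rg are X-linked and the libraries also differed in sex-linked transcripts, the X chromosome was looked at as a whole. Of 356 X-linked genes tested, 45.8% had a log2 fold change above 0, with a median of -0.07. A log2 fold change at least as high as that of Il2rg was held by 5 of them (1.4%), counting Il2rg itself, against 2.09% of all genes tested. For Il13ra1 these figures were 14 X-linked genes (3.93%) against 7.24%. The part of sex in the differences of Il13ra1 and Il2rg cannot be told apart from that of genotype.

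**Figure D3:**
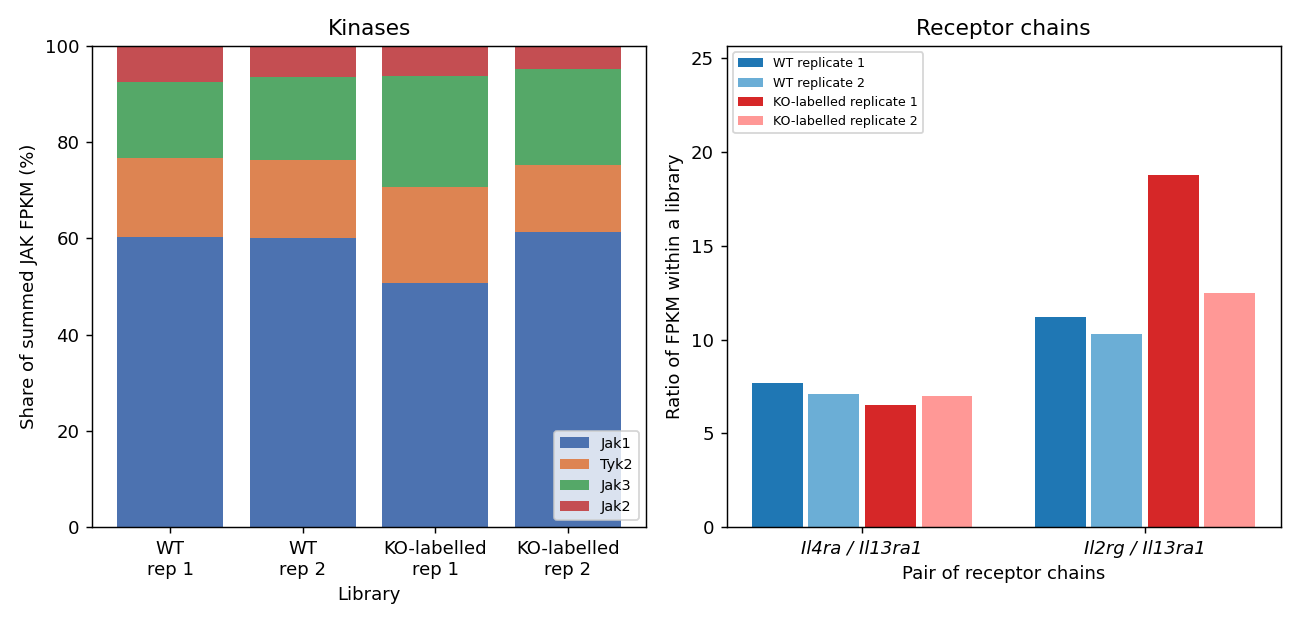
Left, the share of each Janus kinase in the summed FPKM of the 4 kinases in each library (stacked to 100%); right, the ratio of FPKM between receptor chains within each library. Jak1 makes up 50.7% to 61.3% of the kinase transcripts, and the ratio of Il2rg to Il13ra1 is highest, 18.8, in KO-labelled replicate 1.

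Of the kinases, Jak3 showed the only difference that met an unadjusted p below 0.05. Jak3 (Entrez gene 16453, 25 exons, GRCm38 chr8:71676383-71690577), the partner of the common gamma chain, was at 44.0 and 46.0 CPM in WT and at 77.1 and 60.6 CPM in the KO-labelled libraries. The WT libraries were close together and both others lay above them. The fold was 1.53 (95% interval 1.12 to 2.1, adjusted p = 0.264 in edgeR). Its log2 fold change ranged from 0.43 to 0.78 when each library was left out in turn, and was highest without KO-labelled replicate 2. Insl3, which overlaps Jak3 in the annotation, averaged 0.263 CPM, under the value of 3 counts.

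Jak1 (Entrez gene 16451, 25 exons, GRCm38 chr4:101151974-101265282), the kinase of IL-4Rα, was nearly level at 235 and 221 CPM in WT and 238 and 259.9 CPM in the KO-labelled libraries. Its fold of 1.09 had a 95% interval of 0.813 to 1.46, so that a change of more than 1.46-fold upward would lie outside it. On the FPKM scale the groups overlapped, at 45.0 and 44.1 FPKM against 42.3 and 45.5 FPKM, and its log2 fold change was -0.02 in limma on log2(FPKM + 1). Tyk2 (Entrez gene 54721, 25 exons, GRCm38 chr9:21104068-21131393) was at 59.0 and 53.8 CPM in WT and at 85.0 and 54.2 CPM in the KO-labelled libraries, of which replicate 2 was within the WT range. Jak2 (Entrez gene 16452, 25 exons, GRCm38 chr19:29251803-29313095) was at 27.9 and 22.1 CPM in WT and at 27.9 and 18.7 CPM in the KO-labelled libraries. It was the only member with a fitted log2 fold change below 0, -0.10 (95% interval -0.70 to 0.50), which was 0.02 with the trend on gene length removed, and that of Tyk2 was 0.30 (-0.23 to 0.84).

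The summed FPKM of the 4 kinases was 74.8 and 73.4 in WT and 83.5 and 74.2 in the KO-labelled libraries. Within this sum, Jak1 held 60.2% and 60.1% in WT and 50.7% and 61.3% in the KO-labelled libraries, in which replicate 1 alone was low. Jak3 held 15.7% and 17.4% in WT and 23.1% and 20.0% in the KO-labelled libraries. The share of Jak3 kept the groups apart, as did that of Jak2, at 7.59% and 6.4% against 6.34% and 4.7% (exact two-sided permutation test, p = 0.333 for each, the smallest possible). The kinase of the gamma chain thus had a larger share in both KO-labelled libraries, as the chain itself did among the receptor transcripts.

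Stat6 (Entrez gene 20852, 22 exons, GRCm38 chr10:127642955-127660987), the transcription factor on which the pathway converges, was at 239.9 and 256 CPM in WT and at 283 and 310.1 CPM in the KO-labelled libraries. The groups did not overlap in CPM. In FPKM they did, at 64.1 and 71.4 FPKM against 70.3 and 75.8 FPKM. The fold was 1.20 (95% interval 0.889 to 1.61, adjusted p = 0.617 in edgeR), smaller than the folds of the 3 receptor chains, and any difference in Stat6 transcript beyond 1.61-fold upward would lie outside that interval. Nab2, the protein-coding gene that overlaps the end of Stat6, averaged 23.4 CPM, and whether the counting used strand is not given in the sources used here.

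Of the feedback inhibitors, Socs1 varied most of all members. Socs1 (Entrez gene 12703, 2 exons, GRCm38 chr16:10783808-10785536), which binds and inhibits the kinases, was at 33.5 and 14.8 CPM in WT and at 88.6 and 38.0 CPM in the KO-labelled libraries. Both groups spread by more than 2-fold between their own libraries. WT replicate 1 and KO-labelled replicate 2 lay next to each other, and their 95% Poisson intervals of 28.6 to 39.0 CPM and 32.7 to 43.9 CPM overlapped. The fold was 2.61 (95% interval 1.33 to 5.15, adjusted p = 0.239 in edgeR), the largest of the 10 genes and the one with the widest SE, 0.44 on the log2 scale. Its log2 fold change was 1.87 without KO-labelled replicate 2, and ranged from 0.66 to 2.11 when each library was left out in turn.

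Cish (Entrez gene 12700, 3 exons, GRCm38 chr9:107296659-107302784), an inhibitor that docks on receptor chains and is a well-known STAT5 target, was at 7.07 and 7.50 CPM in WT and at 9.80 and 7.19 CPM in the KO-labelled libraries. These values rest on 35 to 46 counts per library, and the 4 Poisson intervals overlapped, the lowest bound being 4.92 CPM and the highest 13.1 CPM. The fold was 1.16 (95% interval 0.666 to 2.04, adjusted p = 0.844 in edgeR), and this interval left room for a difference in either direction. The ratio of Socs1 to Cish in FPKM was 11.7 and 4.86 in WT and 22.3 and 12.3 in the KO-labelled libraries. The ratio kept the groups apart by a narrow margin (exact two-sided permutation test, p = 0.333).

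Lymphocytes express Il2rg, Jak3, Socs1 and Cish, so that the markers of T and NK cells were set beside these members. Relative to the WT mean, KO-labelled replicate 1 had 2.27 times the summed T cell markers and 3.79 times the summed NK cell markers, and 2.48, 1.71, 3.67 and 1.35 times the Il2rg, Jak3, Socs1 and Cish transcripts. In replicate 2 the T cell markers were at 0.865 times and the NK cell markers at 1.05 times the WT mean. Il2rg was at 1.88, Jak3 at 1.35, Socs1 at 1.57 and Cish at 0.987 times in that library. Its sums joined markers that went both ways. Klrk1 at 59.4 CPM (WT 42.8 and 19.2) and Il7r at 14.6 CPM (WT 7.47 and 11.3) were above both WT libraries. Gzmb at 12.5 CPM (WT 60.4 and 19.0) and Cd3e at 2.67 CPM (WT 4.24 and 3.96) were below both. WT replicate 1 had more NK cell markers than WT replicate 2, at 1.41 against 0.591 times the mean, and Socs1 was at 1.39 and 0.612 times in the same libraries. In CPM the T cell markers summed to 126 and 101 in WT and to 257 and 98.0 in the KO-labelled libraries, and the NK cell markers to 168 and 70.4 and to 452 and 125. Of the 13 T cell markers 2 had both KO-labelled libraries above both WT libraries, against 21.4% of all genes. Of the 9 NK cell markers 2 did as well, while Eomes had both below, at 1.62 and 1.25 against 0.426 and 0.411 CPM. The latter values of Eomes were under that of 3 counts. Eomes did not pass the low-count filter, and neither did Klrb1c, which was among the 2 NK cell markers with both above. No T or NK cell marker was at 0 in any library, and Cd3e and Ncr1, which define the 2 lineages, were at 2.67 to 16.4 CPM and at 0.411 to 3.83 CPM. Most of the NK cell sum of KO-labelled replicate 1 came from Klrk1, Gzmb, Nkg7 and Prf1, at 162, 109, 100.1 and 57.7 CPM. Whether that sum came from NK cells or from T cells was not tested. Without KO-labelled replicate 1, the one rich in these markers, the log2 fold change was 0.92 for Il2rg, 0.43 for Jak3, 0.66 for Socs1 and -0.01 for Cish. The part of lymphocyte RNA in the differences of these 4 genes was not tested.

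**Figure D4:**
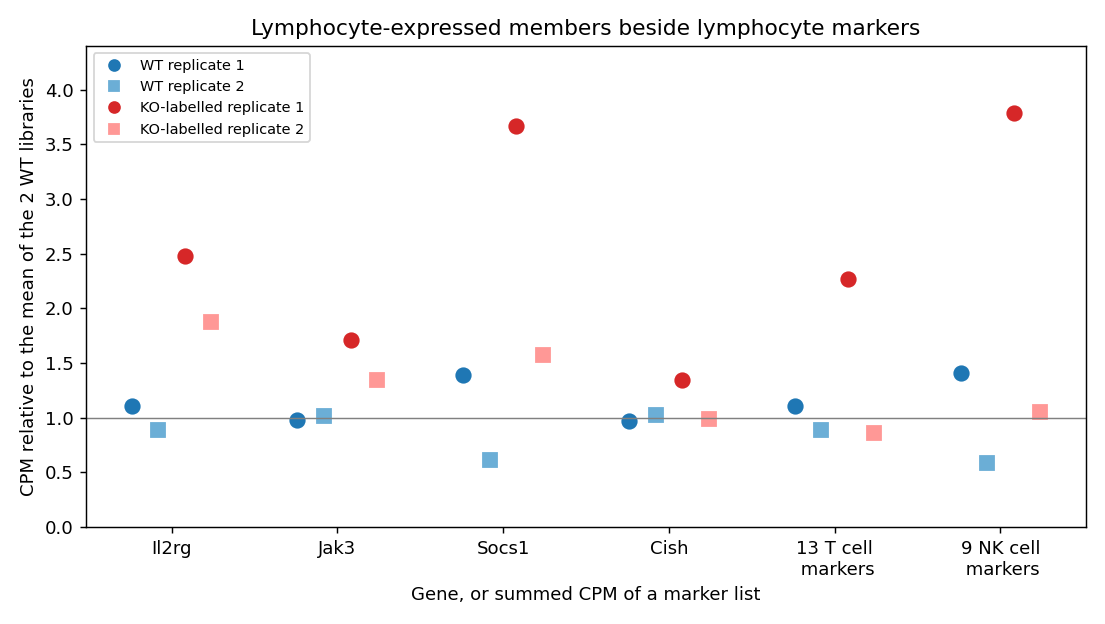
CPM of Il2rg, Jak3, Socs1 and Cish, and summed CPM of 13 T cell and 9 NK cell markers, in each library relative to the mean of the 2 WT libraries (line at 1). KO-labelled replicate 1 is high for every item, while replicate 2 is near or below 1 for both marker lists and for Cish but at 1.88 for Il2rg.

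Markers of other cell types followed the groups in part. The 10 neutrophil markers summed to 185 and 223 CPM in WT and to 288 and 449 CPM in the KO-labelled libraries. Ly6g, their defining surface marker, was listed at 0 in WT and at 1.92 and 0.822 CPM in the KO-labelled libraries. Of the 5 neutrophil markers tested, none was called. For 4 of them, S100a8, S100a9, Csf3r and Mmp8, both KO-labelled libraries were above both WT libraries, against 21.4% of all genes. Only Cxcr2 had a log2 fold change below 0, at 63.6 and 84.0 against 42.8 and 76.8 CPM with overlapping groups. The melanoma markers summed to 829 and 792 CPM in WT and to 619 and 816 CPM in the KO-labelled libraries. Of the 8 melanoma markers 7 had log2 fold changes below 0, with a median of -0.54. For 5 of the 8, both KO-labelled libraries were below both WT libraries, which held for 23% of all genes. The B cell markers were level, at 80.0 to 91.8 CPM. The part of neutrophil and melanoma RNA in the differences of the 10 genes was not tested.

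The rest of the pathway was read from 80 further genes in 8 lists, of which 74 were measured and 66 were tested. None of the 66 was called by edgeR's quasi-likelihood test. At an unadjusted p below 0.05, 12 were higher and 1 was lower in the KO-labelled libraries, against 6.58% and 5.62% of all genes. DESeq2 called 3 of the wider pathway genes, among them Chil3 and Pdcd1lg2, where it called 1.46% of all genes. The median log2 fold change over the 66 genes was 0.09, below the 0.39 of the 10 members. Genes named below are the 2 of each list with the highest mean FPKM, unless said otherwise.

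Of the cytokines, Il4 and Il13, the ligands of the pathway, and Il2 and Il9 were listed in no library. Of the other 4 ligands only Il15 passed the low-count filter, at 21.8 and 19.2 CPM in WT and 39.2 and 23.2 CPM in the KO-labelled libraries (log2 fold change 0.60, adjusted p = 0.421 in edgeR). Among the other receptor chains of the family, the decoy chain Il13ra2 and the IL-9 receptor chain Il9r were listed in no library. The 6 others all had log2 fold changes above 0, none called, with a median of 0.44. The most abundant, Il21r, whose product pairs with the common gamma chain, was at 142 and 156 CPM in WT and at 219.6 and 133 CPM in the KO-labelled libraries. Crlf2, the chain of the TSLP receptor, was at 27.9 and 31.7 against 41.1 and 25.3 CPM. For both of these chains the WT libraries lay between the 2 others, and only Il7r, also 1 of the T cell markers, reached an unadjusted p below 0.05.

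Of the other STAT genes, none was called. Stat2, named after its values were seen, was at 116 and 101 against 199 and 160.3 CPM (log2 fold change 0.72, adjusted p = 0.2 in edgeR). Stat3, which serves IL-6 and IL-10, was at 251 and 243 against 353 and 311 CPM (log2 fold change 0.42, adjusted p = 0.417 in edgeR). Stat5a, the STAT of IL-2 and GM-CSF signals, also named after its values were seen, was at 35.1 and 37.5 against 36.4 and 36.8 CPM. Of the 6 other STAT genes, 4 had both KO-labelled libraries above both WT libraries in CPM, against 21.4% of all genes. In FPKM 4 did as well, against 12.3%. Stat2 and Stat3 were among them, none past the threshold. The groups overlapped for Stat5a in CPM. In FPKM Stat5a was lower in both KO-labelled libraries, at 9.64 and 10.5 in WT against 9.04 and 9.11 FPKM.

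Of the 6 other SOCS genes, 5 had log2 fold changes below 0 and the median was -0.07, but the interval of each of the 6 spanned 0 and their difference from Socs1 was not tested. Socs3, which acts on IL-6 family receptors and was the most abundant, was the 1 above 0. It was at 141 and 77.1 CPM in WT and at 167 and 134 CPM in the KO-labelled libraries (log2 fold change 0.47, adjusted p = 0.525 in edgeR), with overlapping groups. The ratio of Socs3 to Socs1 in FPKM was 1.84 and 2.28 in WT and 0.835 and 1.54 in the KO-labelled libraries. Socs1 transcript exceeded Socs3 only in replicate 1 of the latter. Socs6 was at 32.1 and 25.8 against 27.3 and 29.6 CPM.

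Of 11 phosphatases, PIAS proteins and adaptors that restrain receptors, kinases or STATs, 5 had log2 fold changes above 0 and 6 below, with a median of -0.01. There were 3, Ptpn1, Ptpn2 and Ptpn6, that met an unadjusted p below 0.05 and were higher in the KO-labelled libraries, against 6.58% of all genes. Ptpn11, a tyrosine phosphatase like these 3, was at 25.0 and 23.8 CPM in WT and lower, at 20.0 and 15.2 CPM, in the KO-labelled libraries. Ptpn6, which encodes SHP-1, was at 707 and 549.6 CPM in WT and at 1055 and 813 CPM in the KO-labelled libraries (log2 fold change 0.57, adjusted p = 0.373 in edgeR). Ptprc, which encodes CD45 and was used in the sort, was at 542 and 534 against 796 and 574 CPM. The branch of IL-4Rα that runs through insulin receptor substrates and PI3-kinase was nearly level in CPM, with 9 genes tested and a median log2 fold change of -0.11. In CPM, 2 of the 9 had both KO-labelled libraries below both WT libraries, against 23% of all genes. Both were above for 1 of the 9, against 21.4%. In FPKM both were below for 6 of the 9, and the share of all genes was not computed there. On that scale the median log2 fold change of all genes was -0.133 (limma on log2(FPKM + 1)). Inpp5d, which encodes the lipid phosphatase SHIP1, was at 320.5 and 321 against 326 and 289 CPM, and the kinase Fes was at 184 and 169 against 227 and 193 CPM.

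The 15 coactivators and partner factors of STAT6 had a median log2 fold change of -0.01. Crebbp, which encodes the acetyltransferase CBP and is named because it alone of them met an unadjusted p below 0.05, was at 40.2 and 59.0 CPM in WT and at 33.4 and 30.4 CPM in the KO-labelled libraries (log2 fold change -0.63, adjusted p = 0.322 in edgeR). Both of the latter were below both WT libraries, which held for 23% of all genes. Snd1, a coactivator that bridges STAT6 to transcription, was at 170.0 and 140.4 against 147 and 163 CPM, and Batf3 was at 22.8 and 14.2 against 24.7 and 27.1 CPM. Of the 12 tested genes that IL-4 induces in mouse macrophages, 11 had log2 fold changes above 0 and the median was 1.07, with Arg1 at 545 and 185 against 1719.7 and 1345 CPM (adjusted p = 0.099 in edgeR). Mrc1 was at 1257 and 1452 against 664 and 1353 CPM.

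**Figure D5:**
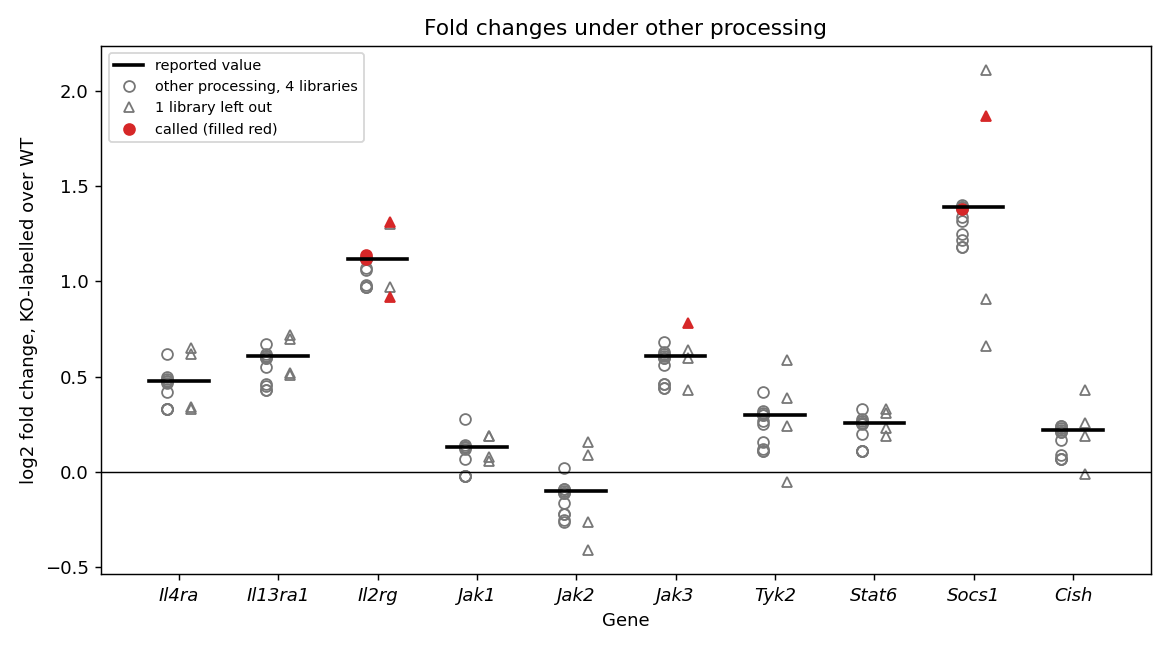
Log2 fold change of each gene, KO-labelled libraries over WT, as reported (black line), under other processing of the 4 libraries (circles) and with 1 library left out (triangles), with filled red symbols where the gene was called. Il2rg stays between 0.92 and 1.31, Socs1 spreads from 0.66 to 2.11, and Jak1, Jak2, Tyk2 and Cish cross 0.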

How the data were processed

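RNA of sorted TAMs was sequenced on an Illumina HiSeq. Per the labels and the study's methods, the authors mapped reads with Bowtie to GRCm38/mm10 and quantified genes with RSEM (versions not given in the sources used here). They deposited, for each library, an expected count per gene, not normalized, of which 77.1% were whole numbers (within 1e-09), and an FPKM, scaled by the authors to transcript length and library total. The deposited transcript lengths served only to check for a trend with length. Entrez identifiers were matched to symbols for 16698 of 16739 genes, and positions are from the GENCODE and RefSeq annotation of GRCm38. Genes absent from a table were set to 0.

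Expected counts were rounded, filtered with filterByExpr (11302 genes), scaled by TMM and tested with edgeR 4.0.16 (glmQLFit, glmQLFTest, R 4.3.3) without a block, using all 4 libraries, with Benjamini-Hochberg adjustment over all genes tested. The threshold (fold change above 1.5, FDR of 0.05) is that of the study. Library totals were 4817292 and 4476122 (WT) and 4917063 and 5172407 (labelled Trim24-deficient); intervals and floors cover counting error only. Ratios were compared by exact permutation tests. Replicates of a group differed by more than sampling noise (chi-square per degree of freedom 8.58 in WT and 19.2 in the other group). The members and gene lists were chosen with earlier results of these data known. Named genes were the 10 members, called genes and the 2 of highest mean FPKM in each list, Trim24 for the labels, and Xist and Ddx3y. Some further genes were named after their values were seen. The values of 1 further list gene are not reported here. Alternatives were DESeq2 1.42.0, other scalings and filters, limma 3.58.1 on FPKM, a robust fit, a replicate block, removal of a length trend, no fold limit, and each library left out. The scripts were tested on simulated data.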

Additional observations from a re-analysis of the deposited data

How the results depend on the processing

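Calls over all genes moved widely, and those of the pathway moved with them. Against 42 genes called in all, 0 of the 10 members and 0 of the 66 wider pathway genes, DESeq2 called 163, 1 (Il2rg) and 3 (among them Chil3 and Pdcd1lg2). limma called 23 genes in all on log2(FPKM + 1), 20 on log2(FPKM + 0.1) and 0 without a filter on low values, and no member in any of these. With each library left out, 25 to 652 genes, 0 to 3 members and 0 to 12 wider pathway genes were called. The 3 members were Il2rg, Jak3 and Socs1, without KO-labelled replicate 2. Without KO-labelled replicate 1 there were 405 genes, Il2rg as the 1 member, and 7 wider genes. Without WT replicate 1 there were 66 genes and 1 wider gene (Arg1), and without WT replicate 2 there were 25 genes and no member. Where a group is left with 1 library, that library is assumed to vary like the others. Apart from these and the replicate block given next, the 3 counts stayed within 1.5 times.

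Both groups carry the numbers 1 and 2, and deviations from the group means correlated at 0.165 across genes between libraries of the same number. No source says that the numbers mark litters, so that the libraries share only a number. The fit with the number as a block (the replicate block), which leaves 1 residual degree of freedom per gene, called 634 genes (5.61%), with 2 members, Il2rg (log2 fold change 1.12, adjusted p = 9.42e-06 in edgeR) and Socs1 (1.38, adjusted p = 7.24e-07), and 8 wider pathway genes.

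The signs of some named genes also depended on the setting. Library totals and limma on FPKM moved the median of all genes by -0.141 to -0.149 on the log2 scale, and Jak1 to -0.02. The 3 limma fits moved Crlf2 to -0.02. Removing the length trend (rho of -0.249 between log2 fold change and length across genes) gave Jak2 0.02, Socs6 0.01, Inpp5d 0.07 and Snd1 0.05, and Snd1 was 0.02 in DESeq2, 0.01 without a filter and 0.0019 with the block. With each library left out, log2 fold changes crossed 0 for Jak2 (-0.41 to 0.16), Tyk2 (-0.05 to 0.59), Cish (-0.01 to 0.43), Il21r (-0.16 to 0.56), Crlf2 (-0.23 to 0.47), Socs6 (-0.18 to 0.15), Inpp5d (-0.14 to 0.03), Snd1 (-0.13 to 0.16) and Mrc1 (-1.03 to 0.00395). The cause was not tested. Cish rests on 35 to 46 counts per library.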
